A study of Saccharomyces cerevisiae with 4 samples.

Results

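The arrays numbered replicate 1 were compared with the arrays numbered replicate 2 in a study of baker's yeast exposed to quinine, an antimalarial drug. All 4 arrays of the study entered the comparison, 2 with each number, and the label of each array gave its number. Every culture was of BY4741, a haploid laboratory strain of mating type a, grown in MM4 medium to mid-exponential phase and then moved to fresh medium for 15 min. The 2 control arrays came from cells without quinine, and the 2 quinine arrays from cells given quinine at 1 g/L, dissolved in ethanol. The labels did not say whether the controls received ethanol. They also did not say whether a replicate number stood for a culture, a day, an RNA extraction or a labelling reaction, so the p-values below measure only the spread between these arrays. The question was which genes and which functions differed between the numbers in the same direction with and without the drug.

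Yeast cells carry a common programme for stress and nutrient shortage. When growth slows or the surroundings worsen, the transcription factors Msn2 and Msn4 switch on chaperones, storage carbohydrate enzymes and antioxidant enzymes, and other regulators release genes for respiration, for alternative carbon and nitrogen sources and for the uptake of scarce phosphate. Genes for cell division and biosynthesis tend to go the other way. These programmes respond within minutes to a change of medium, density or temperature.

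The 2 arrays of a replicate number deviated together. Across the 5130 genes tested, the log2 difference of replicate 1 minus replicate 2 in the controls correlated with the same difference under quinine at a Pearson r of 0.62 and a Spearman rho of 0.55. These are descriptions across genes, which share their arrays and are not independent. With the genes split by signal into 4 classes of equal size, r lay between 0.57 in the brightest class and 0.69 in the dimmest. Over log2 signals, arrays of 1 treatment correlated at r = 0.972 in the controls and 0.982 under quinine, with 158 and 95 genes at least 2-fold apart. Arrays of 1 number correlated at r = 0.973 for replicate 1 and 0.958 for replicate 2, with 144 and 237 genes that far apart. Arrays that shared neither correlated at 0.961 and 0.943, with 290 and 374 such genes. The differences were small for most genes, with a median size of 1.15-fold in both treatments. STE2, the pheromone receptor that marks cells of mating type a, had signals of 3636 to 4316 on the 4 arrays.

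On the deposited signals, more genes were higher in replicate 1 than lower. In both treatments 2408 genes (46.9%) were higher in replicate 1, 1145 (22.3%) were lower, and 1577 (30.7%) went opposite ways. This split depends on the scaling. The median over genes of the mean log2 difference was 0.08 on these signals, and -0.02 after centring or quantile normalization. At least 1.5-fold in both treatments, 170 genes (3.31%) were higher and 32 (0.624%) lower, and after each array was centred on its median these counts were 118 and 87. UBC1 and YER158C lay just inside this limit and HMT1 and ARE2 just outside it. At least 2-fold in both treatments, 61 genes (1.19%) were higher and 5 (0.0975%) lower. Limma, fitted with treatment as a block and adjusted by Benjamini-Hochberg over the 5130 genes, called 677 genes higher (13.2%) and 217 lower (4.23%) at an adjusted p under 0.05. Of these 894 genes, 877 had the same direction in both treatments. Limma calls a gene on the mean of its differences in the 2 treatments. The call thus largely sets this agreement, which is no separate evidence.

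The number of calls depended on the scaling and on the error that limma fitted under it. With 1 residual degree of freedom, a gene's error on the deposited signals came from the other genes. That fit had infinite prior degrees of freedom and gave all genes of a given signal the same error. After centring the prior degrees of freedom were 4.145, so each gene's own spread counted too. The limma fits had 1485 genes at an unadjusted p under 0.05 before centring and 1218 after it. The parts of scaling and error in the calls were not tested separately. Centring the arrays left 97 calls (1.89%), 74 higher and 23 lower, all among the 894, and quantile normalization gave 300 higher and 242 lower. In 8 fits that differed in scaling, filter or error model, 58 genes were called higher each time (1.13%) and 20 lower (0.39%). A gene not detected on all 4 arrays was missing from 1 of these fits and so could not be counted as called in all 8. Beside single genes below, the highest adjusted p over those 8 limma fits is therefore given, or over 7 fits for a gene not detected on all 4 arrays. Single-gene values are deposited signals as replicate 1 against replicate 2, and each fold or log2 difference is replicate 1 over or minus replicate 2, with its SE from the limma fit of 2 arrays per number.

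**Figure D1:**
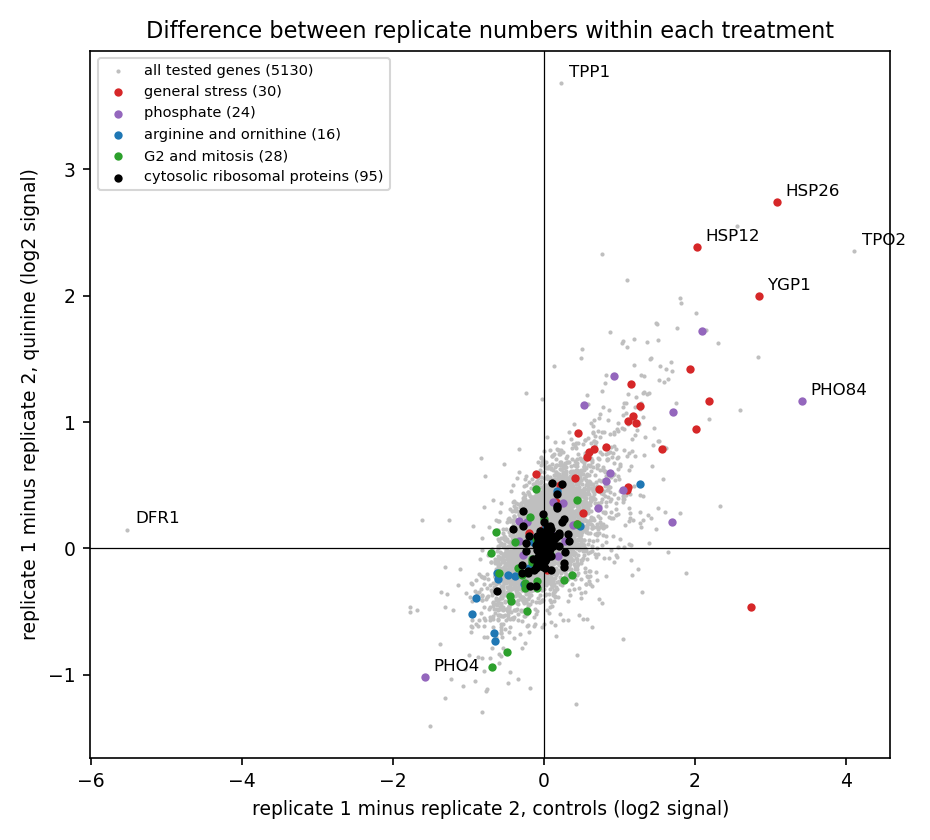
Each point is 1 of the 5130 tested genes, placed by its log2 difference of replicate 1 minus replicate 2 in the controls (horizontal) and under quinine (vertical), with 5 gene lists in colour. General stress genes lie to the upper right, ribosomal protein genes around the centre, and DFR1 and TPP1 far out along a single axis.

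General stress genes stood highest in replicate 1. Of the 30 tested genes of this list, typical Msn2 and Msn4 targets, 25 were higher in replicate 1 in both treatments and none was lower in both. Over all genes 46.9% were higher in both and 22.3% lower in both, for comparison here and in each list below. The limma fit called 22 of the 30 higher, beside 13.2% of all genes, and 9 were called in all 8 fits, beside 1.13%. The median difference of the 30 was 0.96 in the controls and 0.77 under quinine on the log2 scale, against 0.04 and 0.12 over all genes. In RNA from whole cultures, more cells that hold a transcript and more of it per cell cannot be told apart.

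HSP26, a small heat shock protein that keeps unfolded proteins soluble, had signals of 1270.5 against 149 in the controls and 1335 against 199.6 with quinine. Both replicate 1 arrays lay far above both replicate 2 arrays, by 8.52-fold and 6.69-fold, while the treatments lay closer together within a number. The log2 difference was 2.92 ± 0.17, with a highest adjusted p of 0.0132 over the limma fits. HSP12, a small heat shock protein that stabilises membranes, had 1730.2 against 425 and 2153 against 413, a log2 difference of 2.20 ± 0.16 with the same highest adjusted p of 0.0132. YGP1, a secreted glycoprotein made when nutrients run short, had 5695 against 790.3 in the controls and 4776 against 1196 with quinine. Its groups did not overlap either, and its log2 difference was 2.42 ± 0.14 (highest adjusted p = 0.0277). ALD3, a cytosolic aldehyde dehydrogenase, followed with 519 against 136 and 485 against 182, a log2 difference of 1.68 ± 0.17 (highest adjusted p = 0.031).

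The general stress genes were not uniform. SOL4, SSA4, NCE102 and HSP78 had differences of opposite sign in the 2 treatments, and so did TMA10, a ribosome-associated protein of stressed cells. TMA10 signals were 187 against 27.9 in the controls but 1145 against 1579 with quinine, so that its higher level in replicate 1 was seen in the controls alone. Limma still called it higher, among the 22, with a highest adjusted p of 0.454 over its fits. The classic heat shock gene SSA4 was at 242 against 246 and 278 against 251.

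**Figure D2:**
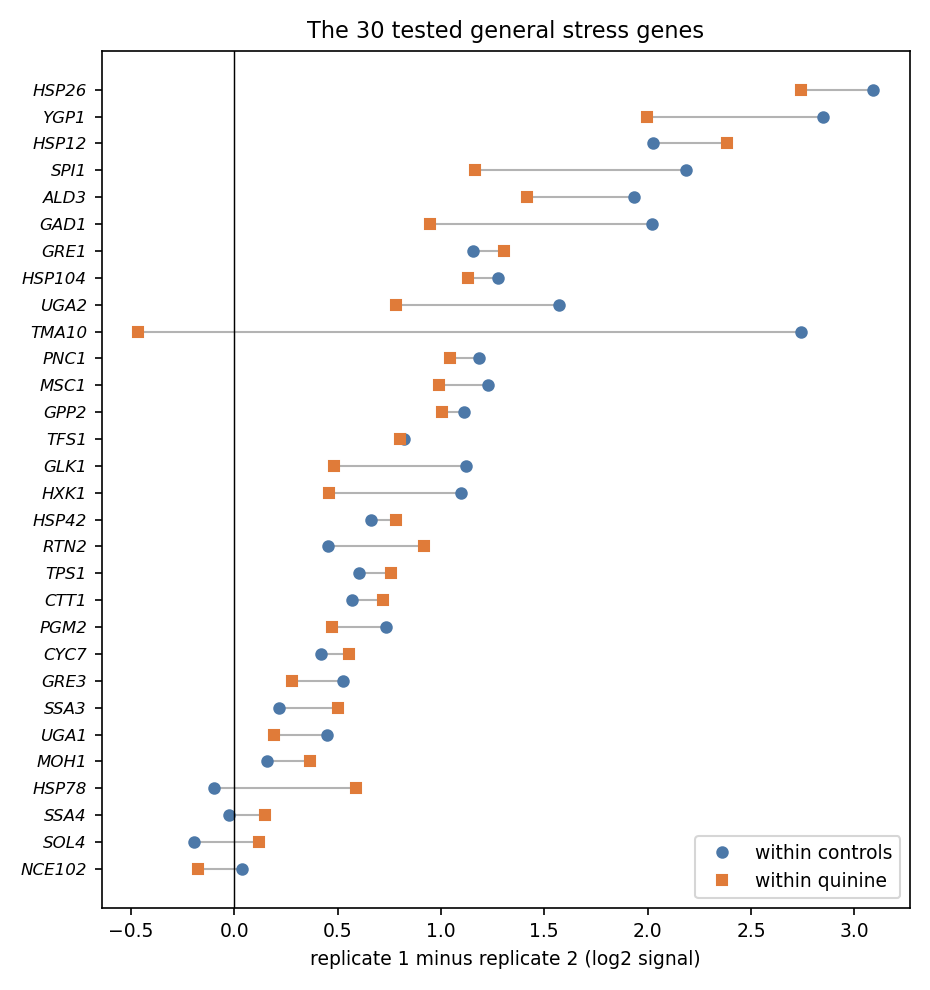
Log2 differences of replicate 1 minus replicate 2 for the 30 tested general stress genes, in the controls (circles) and under quinine (squares), 1 pair of arrays each. All but 5 genes lie to the right of 0 in both treatments, and TMA10 is split between 2.74 and -0.46.

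Genes of membrane stress and weak acid, targets of the regulators Haa1 and War1, were also higher in replicate 1. Of 18 tested genes, 14 were higher in both treatments and none lower in both. Limma called 9 higher, beside 13.2% of all genes, and 4 of them in all 8 fits, beside 1.13%. The list median exceeded that of all genes by 0.26 in the controls and 0.32 under quinine. TPO2, a polyamine exporter of the plasma membrane, had the largest mean log2 difference of all tested genes without further scaling. Its signals were 3320.4 against 192 in the controls and 1078 against 211 with quinine. The replicate 2 arrays were alike, while control replicate 1 stood well above quinine replicate 1, giving folds of 17.3 and 5.12 and a highest adjusted p of 0.0464. TPO2 has a close paralog, TPO3, whose transcript may add to its probe set. HSP30, a membrane protein that restrains the plasma membrane proton pump, had 736 against 121 and 211 against 98.6. Its log2 difference was 1.85 ± 0.17, and it passed 7 of the 8 fits (highest adjusted p = 0.0845). GRE1, a hydrophilic protein of dehydrated cells, had 267 against 119.9 and 280.1 against 114 (highest adjusted p = 0.0274).

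Heat shock chaperones shifted less. Of 26 tested genes, 19 were higher in replicate 1 in both treatments and none lower in both. Limma called 8 higher, beside 13.2% of all genes, and the list median exceeded that of all genes by 0.15. HSP104, the disaggregase that pulls proteins out of clumps, had 1431 against 591 in the controls and 1424 against 651 with quinine (highest adjusted p = 0.031). SIS1, a J-domain co-chaperone, had 2239.8 against 1243 and 1303 against 943, and its adjusted p reached 0.14 in 1 of the fits. The abundant Hsp90 gene HSC82 had 8081 against 7532 and 7903 against 8297, a log2 difference of 0.02 ± 0.08.

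Storage carbohydrate genes were partly higher. Trehalose protects membranes and proteins, and glycogen is the glucose reserve. Of 22 tested genes, 15 were higher in replicate 1 in both treatments and 1 was lower in both. Limma called 9 higher, beside 13.2% of all genes. The list median was 0.13 above that of all genes, and 0.32 above it once each gene's length and signal were adjusted for. TSL1, a subunit of trehalose synthase, had 1583 against 761 and 2181 against 981, a log2 difference of 1.10 ± 0.16 (highest adjusted p = 0.0289). GLC3, the glycogen branching enzyme, had 372 against 179 in the controls and 1054 against 613 with quinine (highest adjusted p = 0.0614). NTH1, which breaks trehalose down, was higher as well, with 1168 against 729.5 and 1062 against 575 (highest adjusted p = 0.0574).

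Genes of hexose uptake and glucose sensing formed the list with the second highest median. Of 14 tested genes, 11 were higher in replicate 1 in both treatments and 1 was lower in both. Limma called 10 higher, beside 13.2% of all genes. The median exceeded that of all genes by 0.80 in the controls and by 0.30 under quinine. HXT5, a hexose transporter of slowly growing cells, had 297 against 105 and 500.3 against 146 (highest adjusted p = 0.0173). MIG2, a repressor active in high glucose, had 630 against 244 in the controls and 1998 against 858 with quinine, a log2 difference of 1.29 ± 0.16 (highest adjusted p = 0.0277). The list thus held both a transporter of poor sugar supply and a repressor of rich supply on the higher side. MTH1, a corepressor of transporter genes in low glucose, had 128 against 41.7 and 970.0 against 558 (highest adjusted p = 0.0845). Transporters of this family are alike in sequence, and probe sets listed under several genes were left out.

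**Figure D3:**
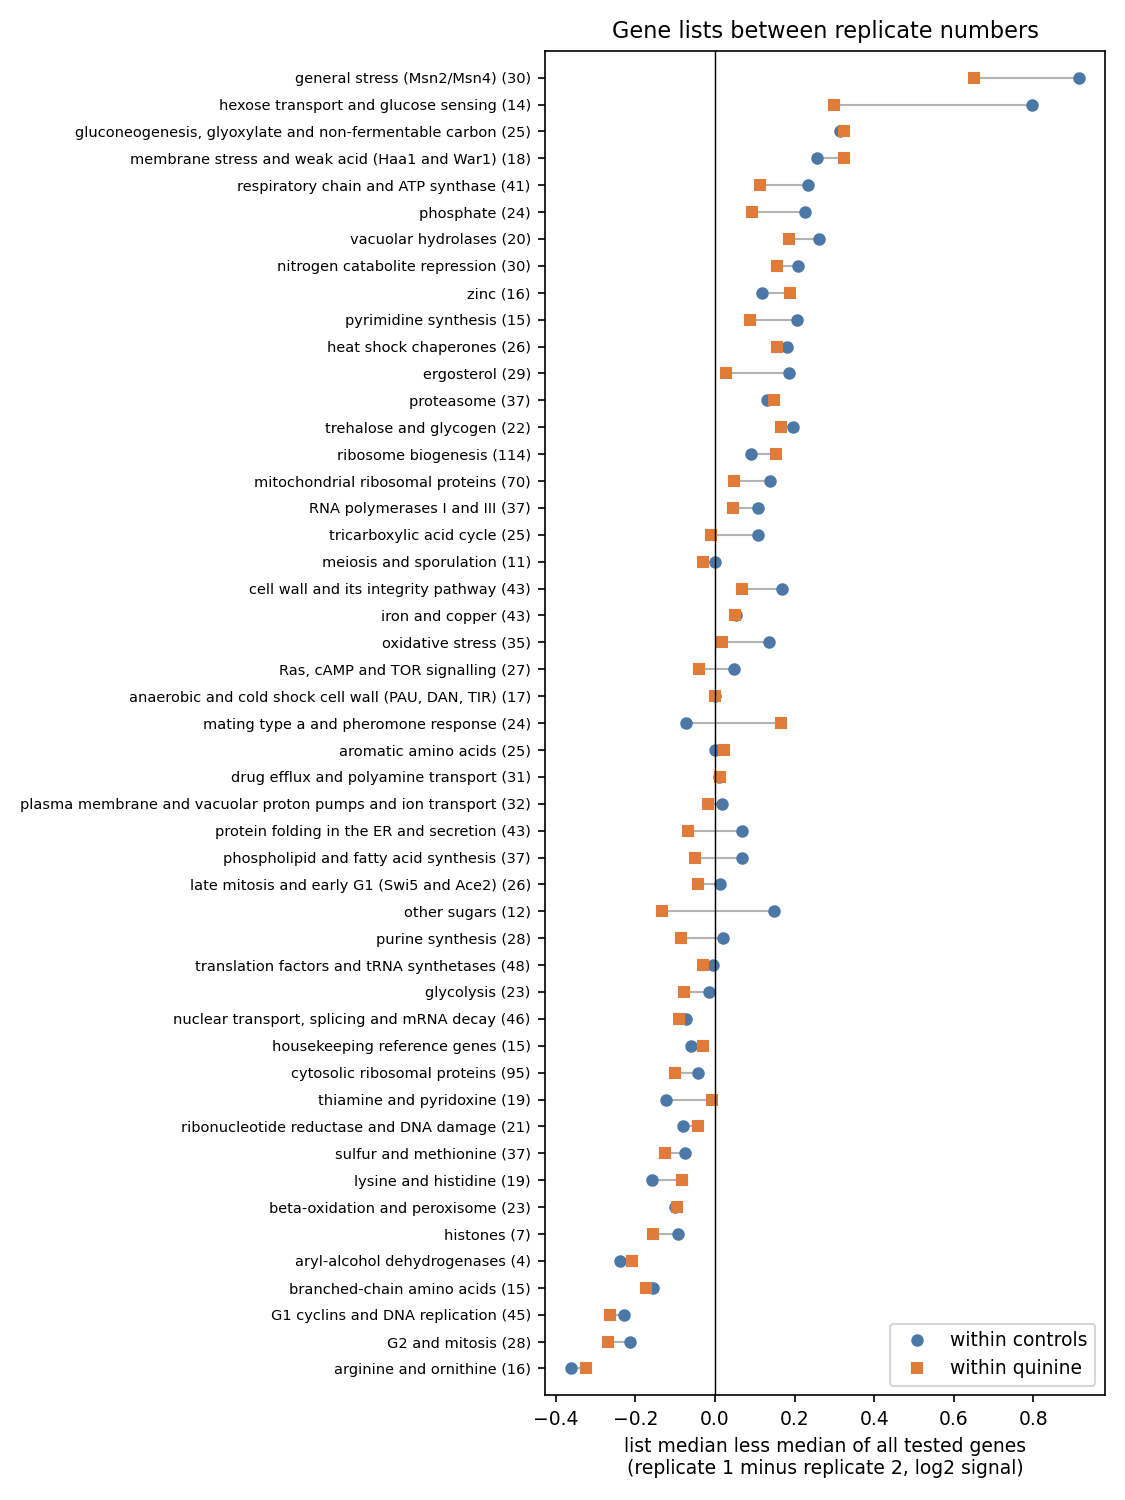
Median log2 difference of replicate 1 minus replicate 2 in each of 49 gene lists, less the median over all tested genes, in the controls (circles) and under quinine (squares); the number of tested genes is in brackets. Lists are ordered by the median of the mean over both treatments, from arginine and ornithine at the bottom to general stress at the top.

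Across the 49 lists, 11 had a median at least 0.1 above that of all genes in both treatments, 5 had one at least 0.1 below it, and 33 had neither. The limit of 0.1 was chosen with the values known, and the lists share genes. All 16 lists kept their sign under the alternatives tried.

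Genes for growth on poor carbon sources were on the higher side. Of 25 tested genes for glucose synthesis and the use of carbon that cannot be fermented, 16 were higher in replicate 1 in both treatments and 3 lower in both. Limma called 13 higher and 1 lower, beside 13.2% and 4.23% of all genes. REG2, a regulatory subunit of the Glc7 phosphatase, had 112 against 48.1 and 272 against 119 (highest adjusted p = 0.0295). MDH2, the cytosolic malate dehydrogenase of gluconeogenesis, had 1721 against 978 and 3459.6 against 1397 (highest adjusted p = 0.0464). PCK1, which commits carbon to gluconeogenesis, had 149 against 99.1 in the controls and 276 against 125 with quinine (highest adjusted p = 0.068).

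The respiratory chain and ATP synthase shifted as a body. Of 41 tested genes, 36 (87.8%) were higher in replicate 1 in both treatments, against 46.9% of all genes, and 1 was lower in both. Limma called 17 higher, beside 13.2% of all genes. The list median exceeded that of all genes by 0.23 in the controls and by 0.11 under quinine. For the mean of both treatments it was 0.22 above, and 0.11 above after the adjustment for gene length and signal. STF2 and STF1 code for small proteins first described as factors of the ATP synthase inhibitor. STF2 had 1283 against 416 and 1597 against 596 (highest adjusted p = 0.0236), and STF1 had 1306 against 543 and 1937 against 981 (highest adjusted p = 0.0489). HAP4, the activating subunit of the respiratory regulator, had 547 against 276 in the controls and 1560.1 against 944 with quinine, a log2 difference of 0.86 ± 0.17 (highest adjusted p = 0.068). The enzymes of the tricarboxylic acid cycle had a median 0.11 above all genes in the controls and 0.01 below under quinine.

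Most phosphate genes were higher in replicate 1, while PHO4 was lower. Pho4 is the transcription factor that switches on phosphate uptake when phosphate is scarce, and PHO84 encodes the high-affinity phosphate transporter it controls. PHO84 had 4059 against 378 in the controls and 4299 against 1914 with quinine, so both replicate 1 arrays stood above both replicate 2 arrays, by 10.8-fold and 2.25-fold. Its log2 difference was 2.30 ± 0.14 and its adjusted p reached 0.102 after centring. SPL2, which curbs low-affinity phosphate uptake, had 307 against 71.5 and 754 against 228, a log2 difference of 1.91 ± 0.17 (highest adjusted p = 0.0217). PHO89, a sodium-coupled phosphate transporter, had 1549.6 against 478 in the controls but 9309 against 8063 with quinine, and its adjusted p reached 0.26. The transcript of PHO4 itself was lower in replicate 1, with 130.0 against 389 and 141 against 286, a log2 difference of -1.30 ± 0.17 (highest adjusted p = 0.0274).

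Of the 24 tested phosphate genes, 17 were higher in replicate 1 in both treatments and 2 lower in both. Limma called 10 higher and 1, PHO4, lower, beside 13.2% and 4.23% of all genes, so the share called lower was near that of all genes. The list median was 0.23 above all genes in the controls and 0.09 above under quinine, so the list did not count among the 11. The low-affinity transporter genes PHO87, PHO90 and PHO91 were not called, with log2 differences of 0.31, 0.05 and 0.10.

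Nitrogen and vacuole genes were also on the higher side. Of 30 tested genes under nitrogen catabolite repression, which are silent while good nitrogen sources last, 23 were higher in replicate 1 in both treatments and 3 lower in both. Limma called 9 higher and 1 lower, beside 13.2% and 4.23% of all genes, so the share called lower was near that of all genes. PUT1, the proline oxidase, had 283 against 132 and 460.3 against 153 (highest adjusted p = 0.0277). MEP2, an ammonium transporter and sensor, had 2153 against 746 and 1388 against 771 (highest adjusted p = 0.0727). The gene called lower was GLN3, an activator of such genes, named after its values were seen, with 498 against 1237 in the controls and 823 against 1135 with quinine.

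Among 20 tested genes of vacuolar hydrolases and autophagy, 14 were higher in replicate 1 in both treatments and 2 lower in both. Limma called 8 higher and 2 lower, beside 13.2% and 4.23% of all genes. The list median was 0.17 above that of all genes, and 0.31 above it after the adjustment for length and signal. AMS1, the vacuolar mannosidase, had 506 against 189 and 665 against 234 (highest adjusted p = 0.0217), and PBI2, an inhibitor of vacuolar protease B, had 2743 against 1383 and 2935 against 1478 (highest adjusted p = 0.0428). ATG1, the kinase that starts autophagy, was lower, with 245 against 839 in the controls and 592 against 841 with quinine (highest adjusted p = 0.0829). The zinc list was higher in 12 of 16 genes in both treatments, but the 2 genes it had called, a share near the 13.2% of all genes called higher, were PST1, a cell wall protein, and INO4, a regulator of phospholipid synthesis. PST1 had 2328 against 801 and 2649.9 against 976 (highest adjusted p = 0.0217).

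Proteasome genes shifted little but almost as one. Of 37 tested genes, 33 (89.2%) were higher in replicate 1 in both treatments, against 46.9% of all genes, and none was lower in both. Limma called 7 of them higher, beside 13.2% of all genes. The median was 0.13 above that of all genes (0.08 after the adjustment for length and signal). UBI4, the polyubiquitin gene of stressed cells, led with 1598 against 818 and 2359 against 1225, a log2 difference of 0.96 ± 0.15 (highest adjusted p = 0.0464). Ribosome biogenesis, which falls in the classic stress response, was on the same side. Of its 114 tested genes 79 were higher in both treatments and 15 lower in both. Limma called 22 higher, beside 13.2% of all genes, and 0 were called in all 8 fits. The median was 0.09 above all genes in the controls and 0.15 above under quinine. The value in the controls lay under the limit of 0.1, so the list did not count among the 11. RSA4, an assembly factor of the large ribosomal subunit, had 3245 against 1941 and 2007 against 1088 (highest adjusted p = 0.0556).

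The remaining genes at the top belonged to no single function. RTC3, a protein of uncertain function, had 659.9 against 112 in the controls and 817 against 139 with quinine, or 5.89-fold and 5.87-fold, with a highest adjusted p of 0.0132. NQM1, a second transaldolase, had 756 against 216 and 756 against 191 (highest adjusted p = 0.0132), and JLP1, which frees sulfur from sulfonates, had 565 against 167 and 542 against 161 (highest adjusted p = 0.0168). For these 3 genes the 2 treatments lay close together within a number, and the numbers lay far apart. TDH1, the glyceraldehyde phosphate dehydrogenase of slow growth, had 6529 against 2465 and 5229 against 1848, a log2 difference of 1.45 ± 0.12 (highest adjusted p = 0.0217). The other members named by rank were GPG1, YPT53, CPP3, NCA3, STP4 and OSW2, and the 15 genes ranked highest spanned folds of 2.83 to 17.3.

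**Figure D4:**
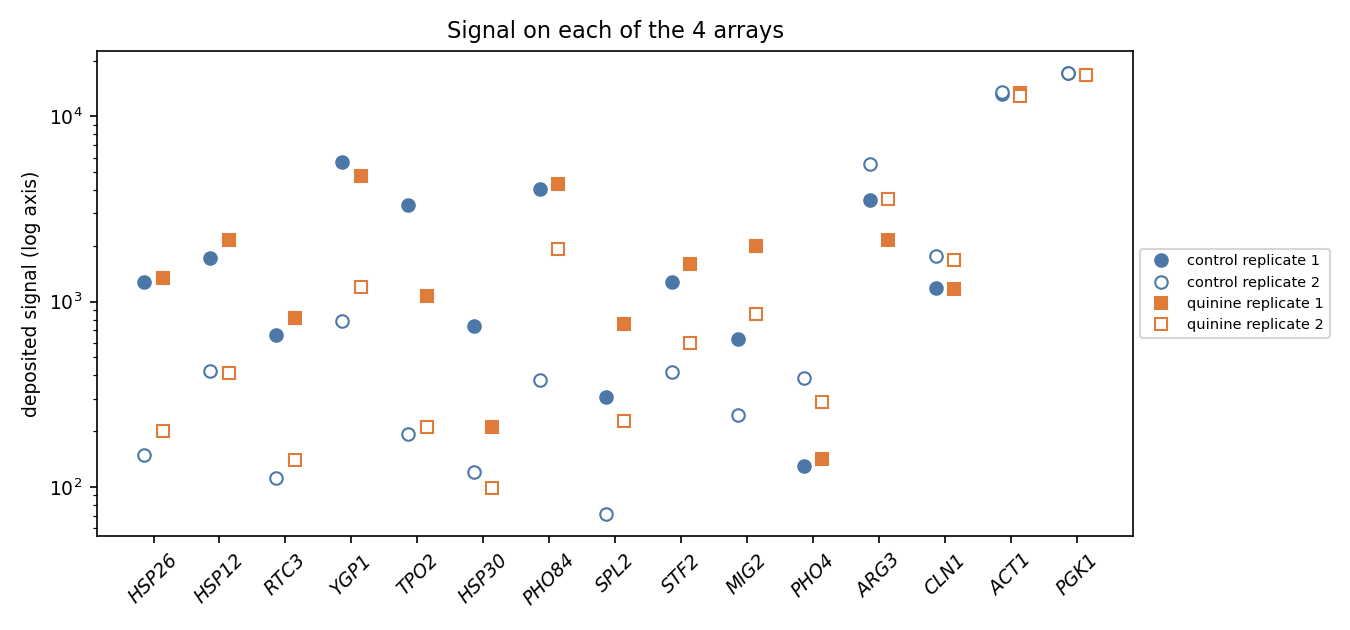
Deposited signal of 15 genes on each of the 4 arrays on a log axis, with replicate 1 filled and replicate 2 open, controls as circles and quinine as squares. For the first 10 genes the filled symbols stand above the open ones within each treatment, for PHO4, ARG3 and CLN1 below, and for ACT1 and PGK1 they coincide.

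Arginine genes formed the lowest list. Of 16 tested genes, 10 were lower in replicate 1 in both treatments and 4 higher in both. Limma called 9 lower and 1 higher, beside 4.23% and 13.2% of all genes. The median was 0.36 below that of all genes in the controls and 0.32 below under quinine. ARG3, the ornithine carbamoyltransferase, had 3556 against 5572 in the controls and 2148 against 3578 with quinine, a log2 difference of -0.69 ± 0.12 (highest adjusted p = 0.0525). ORT1, which exports ornithine from mitochondria, had 1405 against 2713 and 1432 against 2047 (highest adjusted p = 0.0518). CAR1, the arginase that degrades arginine, was the gene called higher, with 2526 against 1047 and 2309.7 against 1624 (highest adjusted p = 0.141). CAR2, the next enzyme of arginine breakdown, was not called, with 1040.0 against 746 and 1375 against 1218, and no arginine gene passed all 8 fits.

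The medians of the cell cycle lists were lower in replicate 1. Of 45 tested genes for G1 cyclins and DNA replication, 21 were lower in both treatments and 6 higher in both. Limma called 8 lower and 2 higher, beside 4.23% and 13.2% of all genes. Of 28 genes for G2 and mitosis, 16 were lower in both and 3 higher in both, with 2 called lower and 1 higher, so that the share called lower was near the 4.23% of all genes. The medians were 0.23 and 0.25 below that of all genes, and 0.11 and 0.16 below it after the adjustment for gene length and signal. CLN1, a cyclin that starts the cycle, had 1179.7 against 1757 and 1170.0 against 1682 (highest adjusted p = 0.0614). KIN3, a mitotic kinase, had 326 against 526 and 327 against 625 (highest adjusted p = 0.0518). CLB6, a cyclin of S phase, had dim signals of 38.8 against 53.7 and 24.5 against 51.4 (highest adjusted p = 0.105). The differences were thus shallow and spread over many genes.

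The branched-chain amino acid list had a median 0.20 below that of all genes, with 8 of 15 genes lower in both treatments and 1 called, near the 4.23% of all genes. The called gene was ILV3, a dehydratase of valine and isoleucine synthesis, with 7844 against 9612 and 7110.1 against 8556 (highest adjusted p = 0.209). Of the 4 tested aryl-alcohol dehydrogenases, 3 were lower in both treatments and 1, AAD10, was called, with 1034 against 1483 and 1394 against 2012 (highest adjusted p = 0.0673).

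The genes at the very bottom differed by less than those at the top, and many were dim. YPR089W had 141 against 401 in the controls and 163 against 430.1 with quinine, a log2 difference of -1.46 ± 0.17 (highest adjusted p = 0.0168). PLM2, a protein of the DNA damage response, had 73.8 against 155 and 73.1 against 155 (highest adjusted p = 0.0277). ADA2, a subunit of the SAGA coactivator, had 184 against 364 and 115 against 206 (highest adjusted p = 0.0277). SPC24 and CTF13, both kinetochore proteins, were among the 15 lowest, each with a highest adjusted p of 0.0518. The signals were 29.7 against 54.5 and 32.9 against 59.6 for SPC24, and 191 against 337 and 209 against 514 for CTF13. Over the 15 genes ranked lowest, replicate 1 stood at 0.33 to 0.59 times replicate 2.

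Many functions stayed level. Cytosolic ribosomal proteins, with 95 tested genes, had a median of 0.00 in the controls and 0.02 under quinine. In both treatments 32 were higher and 26 lower. Limma called 9 higher and 2 lower, shares below the 13.2% and 4.23% of all genes. Glycolysis, translation factors and housekeeping genes had medians within 0.08 of all genes in both treatments. ACT1, or actin, had 13164 against 13560.4 and 13317 against 12827, a log2 difference of 0.01 ± 0.07. PGK1, a glycolytic kinase, had 17136 against 17204 and 16767 against 16758. TDH3, the main glyceraldehyde phosphate dehydrogenase, had 21993 against 23723 and 23377 against 21939, while its isozyme TDH1 differed by 2.65-fold and 2.83-fold.

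Some calls rested on a single array. DFR1, the dihydrofolate reductase, had a signal of 28.6 on control replicate 1 against 1317 on control replicate 2, and 804 against 724 with quinine. It was called lower (log2 difference -2.69 ± 0.17), but its adjusted p was 0.247 after centring and its quinine pair went the other way. TPP1, a DNA phosphatase, had 366, 313 and 314 on 3 arrays and 4034 on quinine replicate 1, and its call as higher was lost after centring (highest adjusted p = 0.214). Opposite differences of at least 1.5-fold were seen in 3 genes (0.0585%), ECM13, MST28 and ZWF1.

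Probe sets for parts of mostly long genes were often lower in replicate 1 with and without quinine. The array carries, beside a gene's own probe set, probe sets for some genes whose names end in a running number. They are called segments here from these names alone, and what the number counts from was not given in the labels. They did not enter the comparisons above. Of 296 such probe sets with a gene's description, 127 (42.9%) were at least 1.5-fold lower in replicate 1 in both treatments and 0 were higher, a count by size with no test, against 0.69% and 3.28% of 5218 probe sets of single named genes. For 86 genes with both kinds, the segments' median difference was -0.49 in the controls and -0.58 under quinine, while the genes' own probe sets had -0.01 and 0.06. The segments lay below the own probe set in both treatments in 72 of the 86 genes (83.7%) and above it in 3. These genes were mostly long, with a median of 3934.5 bases against 1274.5 over all tested genes and a shortest member of 453 bases, and by their locus tags all 86 lie on the W strand.

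Segments of 1 gene also differed from each other. GCN1, a large regulator of the amino acid starvation response, had signals of 57.1 against 271 in the controls and 50.1 against 341 with quinine in its segment numbered 2. Its segment numbered 7 was at 2399.8 against 3121 and 2401 against 3114, and its own probe set had log2 differences of 0.02 and 0.20. FAS1, a fatty acid synthase subunit, went from 607 against 2717 in a segment numbered 1 to 4747 against 4939 in segment 6 in the controls. Both genes were chosen after their values were seen. Among 49 genes with at least 3 different segment numbers, the highest-numbered segment was less low than the lowest-numbered one in 37 and lower in 12, with medians of -0.38 and -0.73, and it was the brighter of the pair in 43.

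**Figure D5:**
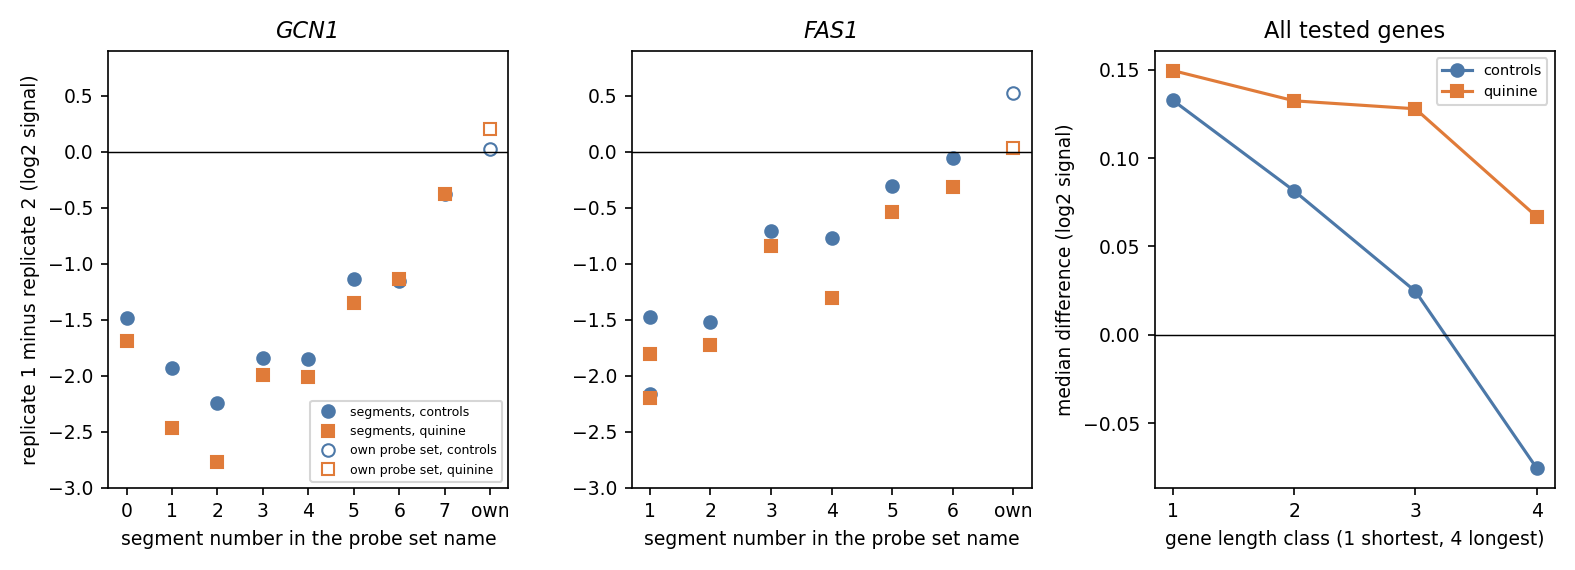
Log2 differences of replicate 1 minus replicate 2 for the numbered segments and the own probe sets of GCN1 and FAS1 (left, middle), and medians over all tested genes by class of gene length, from shortest to longest (right), in the controls (circles) and under quinine (squares). Segments numbered up to 2 lie between -1.48 and -2.77 and the own probe sets above 0, and the medians decline from the shortest to the longest genes.

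The tested genes showed a weaker trend of the same sign with length. From the shortest of 4 classes of nearly equal size (78 to 798 bases) to the longest (1944 to 14733 bases), the median difference went from 0.13 to -0.08 in the controls and from 0.15 to 0.07 under quinine. The part of this trend in the single-gene differences was not tested. After the adjustment of each pair of arrays for length and signal, the general stress median was 0.69 above that of all genes against 0.71 before, and the arginine median was 0.33 below against 0.37 before. The correlation between the treatments was 0.62 with and without the adjustment, and the lists with a direction were 11 higher and 5 lower before it and 10 higher and 6 lower after it.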

How the data were processed

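Transcripts were measured on 4 Affymetrix Yeast Genome S98 arrays with cRNA from 8 µg of total RNA each, per the labels' protocols. The deposited values are linear intensity signals. The submitters' processing notes list MAS5; no scaling target is given in the sources used here. Array medians over 7519 probe sets lay between 596 and 636, and the number of arrays limits the precision. The authors' deposited summary gave Present calls as a percent per group. Its columns of score values, the authors' standard errors and signed fold changes over each group's 2 arrays, were not used.

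RefSeq names matched 5291 probe sets to 1 gene. Probe sets of several genes (480) or of no matched gene were left out, and some strain marker genes are not analysed here. The brightest probe set per gene, Present on at least 2 of 4 arrays, gave 5130 genes. Log2 deposited signals were fitted in limma 3.58.1 (R 4.3.3; eBayes, variance trend) on treatment and replicate number, with p-values adjusted by Benjamini-Hochberg; the fit was tested on simulated data. A permutation within treatments has 4 arrangements and cannot go below an exact two-sided p of 0.5, so none was run.

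Genes were ranked by the smaller of their differences in the 2 treatments. Named were the 15 highest and 15 lowest, up to 10 called genes each way, up to 4 members per list, and 9 preset genes; any other gene was picked with its values in view. The members and lists were chosen with earlier results of these data known. Alternatives were centring, quantile normalization, a pseudocount of 50, other filters, the mean of probe sets, no variance trend, no treatment block and arrays left out; an adjustment for gene length and signal (loess, span 0.5) was added after seeing the data. Promoter motifs were not searched.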

Additional observations from a re-analysis of the deposited data

Results flagged for a closer look

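The list of other sugars, genes for galactose, maltose and sucrose use, had medians on opposite sides of that of all genes in the 2 treatments. Relative to all genes, its median difference of replicate 1 minus replicate 2 over 12 tested genes was 0.15 in the controls and -0.13 under quinine, a gap of 0.28 on the log2 scale. The difference between the treatments was not tested. The unadjusted medians were 0.19 and -0.01, and single genes mostly went 1 way, 6 being higher in both treatments, 2 lower in both and 4 split. The leading member, higher in both, was the maltose transporter gene MAL11, with signals of 106 against 72.2 in the controls and 278 against 219 with quinine.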

How the results depend on the processing

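With 4 arrays and 1 residual degree of freedom, the count of calls was the least stable result. It was 894 on the signals as deposited, 97 after centring and 542 after quantile normalization. The prior degrees of freedom of these fits were infinite, 4.145 and 11.46, so the fits also differed in their error. Without the treatment block limma called 0 genes (411 at an unadjusted p under 0.05), and leaving out each array in turn without the block gave 0 to 0 calls (155 to 547 at an unadjusted p under 0.05). The cause was not tested, except that these fits count the treatment difference as error or hold 1 array fewer. Centring moved the median of all genes under quinine from 0.12 to -0.06 and in the controls from 0.04 to 0.01. Among 221 named genes, 176 of the alternative values no longer passed the threshold (121 under centring, 30 under quantile normalization), 10 newly passed, and RPP1B went from 0.23 to 0.00 under quantile normalization. DFR1 was at 0.15 without either control array and at -5.53 without either quinine array. The replicate numbers pair the arrays only by the correlation across genes (r = 0.62); with 2 pairs, the labels give no origin for it. With the replicate number as a block, the count of genes called between quinine and control went from 1 to 1458, and the median residual SD of a gene from 0.167 to 0.0972 (log2). The residual degrees of freedom went from 2 to 1 and the prior ones from 3.864 to infinite. The count and the SD also depend on these degrees of freedom, so neither measures the replicate number alone. With each scaling, filter and adjustment tried, 15 or 16 of the 49 lists had a direction. Signals under about 100 limit what can be said of the dimmest genes.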

Other observations

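The mating type a list had medians on opposite sides of that of all genes in the 2 treatments, a difference that was not tested. Its median, relative to all genes, was -0.07 in the controls and 0.17 under quinine over 24 tested genes. In both treatments 10 genes (41.7%) were higher in replicate 1 and 5 (20.8%) lower, near the 46.9% and 22.3% of all genes. Limma called 6 higher in replicate 1 and 1 lower, beside 13.2% and 4.23% of all genes. AGA1, the anchor of the cell surface agglutinin, had 1271 against 801 and 1672 against 828, a log2 difference of 0.84 ± 0.16 (highest adjusted p over the limma fits 0.0566). SST2, which dampens the pheromone signal, was the gene called lower, with 527 against 954 and 736 against 936 (highest adjusted p = 0.068).

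Among 2031 other probe sets, for features that are no single named gene, 12.2% were at least 1.5-fold lower in replicate 1 in both treatments and 1.18% higher. The 60 probe sets of small nuclear and nucleolar RNAs had medians of 0.27 in the controls and -0.07 under quinine.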
